A study of Mus musculus with 4 samples.

Results

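The ion channel and purinergic receptor genes of mouse female germline stem cells (FGSCs) were compared between cells carrying a short hairpin RNA (shRNA) against the long non-coding RNA Gm26917 and cells carrying a control hairpin. Members were the protein-coding genes whose symbols belong to the Kcn, Trpc, Trpv, Trpm, Cacn, Scn, Clcn, Ano, Orai, Stim, Itpr, P2rx, P2ry and Piezo families. The rule matched 54 rows of the 12701 genes measured. Cacng7 appeared on chromosome 7 and on an alternative scaffold with identical values and was counted once, which left 53 genes. Trpc4ap, an adaptor protein and not a channel, also matched by its symbol.

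RNA sequencing was performed on 4 libraries, 2 from the shNC group, which carried the control hairpin, and 2 from the shGm26917 group, and every library was labelled as germ stem cells of the FGSC line from ovary. Hairpins were delivered by lentivirus and infected cells were kept under drug selection, and the sources used here do not give the age of the animals behind the line. The study writes of biological replicates, without saying whether replicate libraries were separate cultures, so each p-value reflects the scatter of these libraries alone. Values are CPM, the reads of a gene scaled to a common library size.

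Ion channels set the membrane potential and the entry of calcium into a cell, and purinergic receptors sense nucleotides outside it. P2X receptors are cation channels opened by ATP, whereas P2Y receptors are coupled to G proteins, and several of them activate phospholipase C and so open the IP3 receptors of the endoplasmic reticulum. When the store of the reticulum empties, STIM proteins in its membrane open ORAI channels in the plasma membrane. Transient receptor potential (TRP) and Piezo channels add calcium or sodium entry driven by chemical or mechanical stimuli, and potassium channels offset that charge.

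The hairpin target sequences are shown because they define the 2 groups and so that stretches shared with a channel gene can be seen. Whether a shared stretch had any effect was not tested. The sources used here do not say which of the shGm26917 sequences these libraries carried.
shGm26917 1: gcgtttgctctctcgtcta
shGm26917 2: gctccaatagcgtatatta
shGm26917 3: gcGATTTGTCTGGTTaatt
shNC: ttctccgaacgtgtcacgt

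Sequence 1 lay on mm10 at chr17:39844007-39844025, in the single exon of Gm26917 on the plus strand. Sequences 2 and 3 lay at chr17:39846994-39847012 and chr17:39847713-39847731, in the single exon of the neighbouring non-coding gene Gm42418. The shNC sequence had no exact match among the GENCODE M21 transcripts. Capitals mark the 13 bases that sequence 3 shared with Clcn3, at chr8:60925898-60925910 on the minus strand, in an exon of a Clcn3 transcript without annotated coding sequence. Sequences 1 and 2 and the shNC sequence shared at most 10 bases in a row with any transcript of the 53 genes. Clcn3, which encodes a chloride-proton exchanger of endosomes, had 85.6 and 75.6 CPM in the shNC libraries against 88.1 and 88.3 CPM in the shGm26917 libraries, and was not called (limma, adjusted p = 0.212).

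The target Gm26917 had 155 and 157 CPM in shNC against 136 and 104 CPM in shGm26917, a log2 fold change of -0.39 that was not called (limma, adjusted p = 0.0696), whereas Gm42418 fell from 2882 and 3462 to 729 and 687 CPM (log2 fold change -2.16, adjusted p = 5.57e-05). Of 12 germ cell markers, 4 were listed (Ifitm3, Zbtb16, Gfra1 and Kit), with a summed level of 1311 to 1376 CPM in shNC and 1248 to 1290 CPM in shGm26917 and 1 lower, while Ddx4, Dazl, Pou5f1, Prdm1, Dppa3, Nanos3, Tfap2c and Sall4 had no row among the genes analysed here. Kit, which is also in the mast cell list, made up most of that sum, with 1279 and 1203 CPM in the shNC libraries against 1228 and 1187 CPM, and Ifitm3 was the marker that fell (log2 fold change -0.81). Of 15 mast cell markers, 7 were listed, 1 higher and 4 lower, with a summed level of 2727 to 2750 CPM in shNC and 2558 to 2582 CPM in shGm26917. That sum held opposite moves. Cpa3 rose from 490 and 541 CPM in shNC to 734 and 823 CPM in shGm26917. Il1rl1 fell from 457 and 465 to 172 and 163 CPM, and Gata2 from 477 and 467 to 380 and 370 CPM. Mcpt8 and Ms4a2, both low, also fell, and Ms4a2 was at 0 CPM in 1 shGm26917 library. Ms4a2 was kept among the genes measured only through shNC, where it was higher, and the 4 lower markers include it. The 7 listed of 8 fibroblast markers summed to 423 and 444 CPM in the shNC libraries against 389 and 377 CPM in the shGm26917 libraries (1 higher, 1 lower), the 2 listed of 5 macrophage markers summed to 168 to 193 and 165 to 170 CPM (1 lower), and 0 of 5 granulosa cell markers were listed. The part of these cell type differences in the results below was not tested. In bulk samples, fewer cells of a type and less RNA per cell cannot be told apart.

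Among the 53 genes, 8 rose and 3 fell in shGm26917. The counts include P2rx3 and Kcnk4, each kept among the genes measured only through the group where it was higher. The genes that rose encode ATP-gated channels (P2rx3 and P2rx4), a store-operated calcium channel subunit (Orai3), TRP cation channels (Trpv2 and Trpm2), potassium channels (Kcnq5 and Kcnk6) and a potassium channel partner (Kcnab2). The genes that fell were P2rx1, the calcium sensor gene Stim2 and the potassium channel gene Kcnk4. Called here means an adjusted p under 0.05 from limma on log2(CPM + 0.5), adjusted over all 12701 genes, and fold changes are on that scale, which understates the change of low genes. The 11 calls were 20.8% of the 53 genes, against 23.1% of all genes tested. The 8 higher calls were 15.1% of the group against 11.6% of all genes, and the 3 lower calls 5.66% against 11.5%. The share of called genes was thus close to that of the whole table, and the calls below are results of single genes. The counts depended on single libraries. Calls among the 53 genes were more numerous without either shNC library and fewer without either shGm26917 library. Calls among all genes moved the same way.

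In 19 of the 53 genes both shGm26917 libraries lay above both shNC libraries, which was so for 31.5% of all genes, and in 13 both lay below, against 32.7% of all genes. The 32 genes without overlap compare with 64.2% of all genes, and the groups overlapped in 21. The median log2 fold change was 0.04 for the 53 genes and -0.01 for all genes, and the median absolute change was 0.15 and 0.16. At an unadjusted p under 0.05, 18 of the 53 and 4718 of all 12701 genes passed with limma. Of the 35 genes averaging 5 CPM or more, 9 were called (25.7%, against 25.3% of all genes at that level), and of the 18 below it, 2 were called (11.1%, against 14.8%). These 2 were P2rx3 and Kcnk4. As a comparison family of transport proteins, 190 solute carrier genes were called in 52 cases (27.4%), 42 of them higher and 10 lower.

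**Figure D1:**
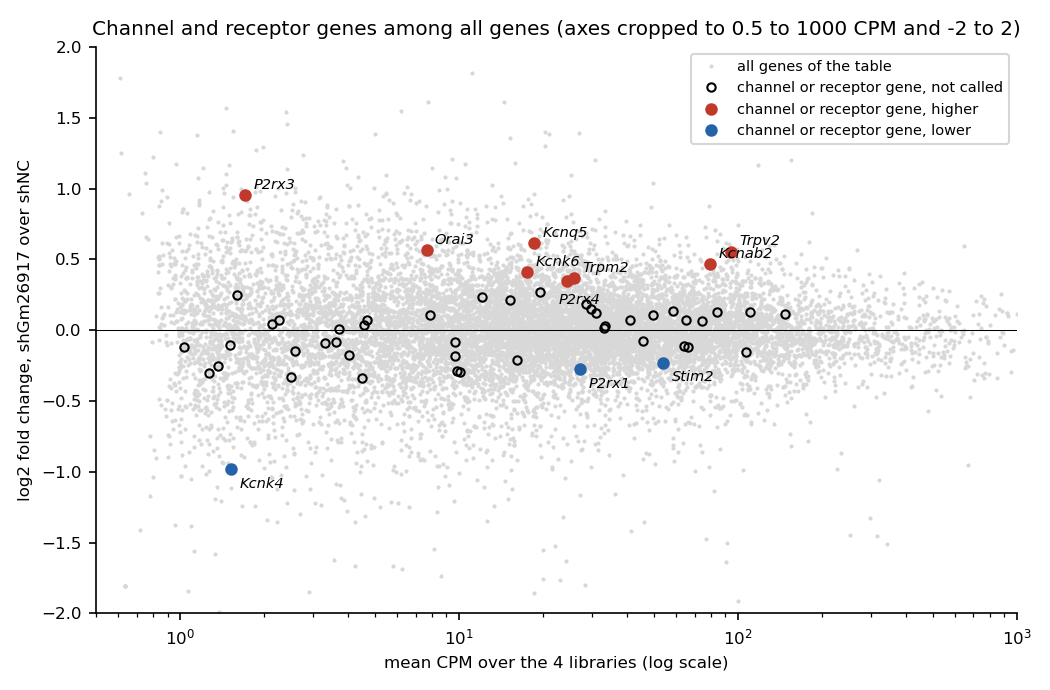
Log2 fold change of CPM + 0.5, shGm26917 over shNC, against the mean CPM of the 4 libraries on a log axis, with all genes within the axes as small grey points, uncalled channel and receptor genes as open circles and called ones as filled circles. Both axes are cropped, so genes beyond their limits are not shown. P2rx3 and Kcnk4, both under 3 CPM in every library, lie at 0.96 and -0.98, and the other 9 called genes lie between -0.28 and 0.61.

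Per kilobase of exon, P2ry10 was the highest of the 53 genes in shNC, at 37.8 CPM per kb, followed by Trpv2 at 17.0 and Trpm7 at 12.5 CPM per kb. P2ry10 carries a P2Y name but is a receptor for lysophosphatidylserine, and Trpm7 encodes a magnesium- and calcium-permeable channel fused to a kinase. Kcnab2 (11.98), P2rx1 (11.4), Stim2 (11.4) and Piezo1 (10.6 CPM per kb) came next. The lowest was Cacna1e, a voltage-gated calcium channel pore gene, at 0.059 CPM per kb. In shGm26917, Trpv2 was at 25.0, Kcnab2 at 16.6 and P2rx1 at 9.33 CPM per kb. In CPM without regard to length, the 8 highest genes were Trpm7, Piezo1, P2ry10, Trpv2, Clcn3, Kcnab2, Trpc4ap and Itpr3. Of these 8, Trpv2 and Kcnab2 were called.

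The P2X genes moved in both directions. All 4 that were measured separated the groups, with 2 called higher, 1 called lower and 1 not called. Of all genes, 64.2% separated the groups and 23.1% were called. P2rx4, whose channel sits in the plasma membrane and in lysosomes, had 21.2 and 21.7 CPM in the shNC libraries against 27.5 and 27.2 CPM in the shGm26917 libraries. Both shGm26917 libraries were above both shNC libraries, and the libraries within each group lay close together (log2 fold change 0.34, SE 0.068, 95% interval 0.19 to 0.50, limma adjusted p = 0.0119). P2rx1, which encodes a fast desensitising ATP-gated channel, had 31.8 and 27.9 CPM in the shNC libraries against 24.2 and 24.8 CPM in the shGm26917 libraries. The groups did not overlap, and shNC replicate 1 was the highest library (log2 fold change -0.28, SE 0.082, 95% interval -0.47 to -0.09, adjusted p = 0.0465).

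P2rx3, best known from sensory neurons, was low, at 0.88 and 1.13 CPM in the shNC libraries against 2.26 and 2.56 CPM in the shGm26917 libraries. These levels correspond to about 14 and 15 reads in shNC and about 40 reads in each shGm26917 library, from approximate library sizes. In shNC only 1 of the 2 libraries reached 1.003 CPM, the lowest second-highest level of any gene in the table, so its place in the table rested on shGm26917. The groups did not overlap (log2 fold change 0.96, SE 0.183, 95% interval 0.53 to 1.38, adjusted p = 0.0107). Of its 2789 exon bases, 51 (1.8%) overlap the opposite-strand gene Ssrp1, a histone chaperone gene at 202 to 247 CPM whose log2 fold change was -0.16 (adjusted p = 0.152). The sources used here do not say whether counting used strand. P2rx7, whose channel needs high ATP and can admit large molecules, had 14.06 and 14.04 CPM in the shNC libraries against 16.6 and 16.2 CPM in the shGm26917 libraries. The groups did not overlap, and the gene was not called (log2 fold change 0.21, SE 0.080, adjusted p = 0.0969).

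The summed level of the P2X genes was 68.0 and 64.7 CPM in the shNC libraries against 70.6 and 70.7 CPM in the shGm26917 libraries. P2rx1 was above P2rx4 in both shNC libraries and below it in both shGm26917 libraries, in CPM without regard to length. Per kilobase of exon, P2rx1 stayed above P2rx4 in both groups. The means were 11.4 against 3.05 CPM per kb in shNC and 9.33 against 3.90 CPM per kb in shGm26917. The log2 ratio of P2rx4 to P2rx1 within a library was -0.57 and -0.36 in shNC and 0.18 and 0.13 in shGm26917, and that of P2rx7 to P2rx1 was -1.15 and -0.97 against -0.53 and -0.60. Both ratios separated the groups, by 0.62 and 0.49 on the log2 scale. These ratios restate the changes of the single genes and are no further support for them. With 2 libraries against 2, a two-sided exact permutation test cannot go below p = 0.333. The calls depended on single libraries: P2rx4 was not called without shGm26917 replicate 1 or 2 (limma, adjusted p = 0.0668 and 0.058), P2rx3 without shGm26917 replicate 2 (0.0666), and P2rx1 without shNC replicate 1 (0.11) or shGm26917 replicate 1 or 2 (0.156 and 0.112). The log2 fold change of P2rx4 stayed at 0.34 and 0.35 in these fits and that of P2rx3 at 0.88, while that of P2rx1 was -0.18 without shNC replicate 1. P2rx1 was also not called without trend and robust moderation together (0.107).

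**Figure D2:**
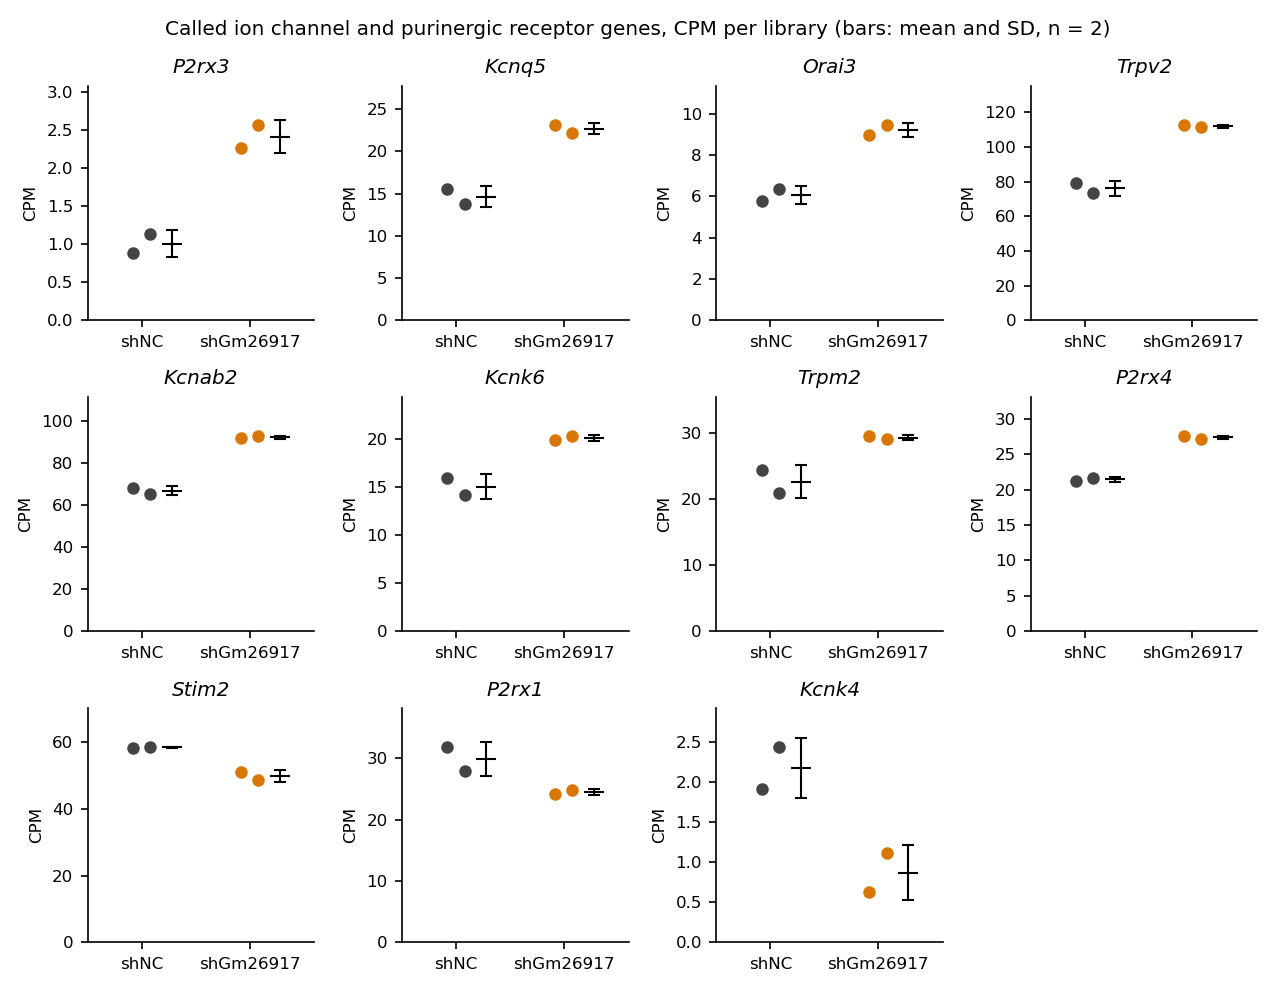
CPM in each library of the 11 called genes, with shNC in grey and shGm26917 in orange, and bars for the mean and SD of the 2 libraries of a group. Each axis starts at 0, and in every panel the groups do not overlap.

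Of the 5 P2Y genes measured, 0 were called with limma, and 2 had an unadjusted p under 0.05. P2ry10 had 109 and 117 CPM in the shNC libraries against 101 and 102 CPM in the shGm26917 libraries, and P2ry1, an ADP receptor gene that signals through phospholipase C, had 11.4 and 10.3 against 9.30 and 8.25 CPM. In both genes the shGm26917 libraries were below the shNC libraries, and the log2 fold changes were -0.15 and -0.29 (limma, adjusted p = 0.0958 and 0.0976). P2ry10b had 17.7 and 17.0 CPM in the shNC libraries against 14.1 and 15.9 CPM in the shGm26917 libraries (log2 fold change -0.21, adjusted p = 0.138). P2ry10 and P2ry10b shared 3.79% and 3.71% of their 50-base stretches with other genes, so reads could be divided between copies for a small part of each. P2ry14, a receptor for UDP-glucose, had 26.7 and 32.8 CPM in the shNC libraries against 32.01 and 32.59 CPM in the shGm26917 libraries (0.12, adjusted p = 0.401). P2ry2, a receptor for ATP and UTP, had 3.64 and 3.77 against 3.65 and 3.79 CPM (0.005, adjusted p = 0.983, 95% interval -0.30 to 0.31). The groups overlapped in P2ry14 and P2ry2. P2ry10 was called without shNC replicate 1 (log2 fold change -0.20, adjusted p = 0.0197) and P2ry14 without shNC replicate 2 (0.27, adjusted p = 0.024).

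The store-operated calcium entry genes changed at 1 channel subunit and 1 sensor, where 23.1% of all genes were called. Orai3, the mammal-specific ORAI pore subunit, had 5.78 and 6.38 CPM in the shNC libraries against 8.97 and 9.45 CPM in the shGm26917 libraries. Both shGm26917 libraries were above both shNC libraries (log2 fold change 0.56, SE 0.109, 95% interval 0.31 to 0.82, limma adjusted p = 0.0111). Stim2, the sensor that responds to small falls in the store, had 58.2 and 58.4 CPM in the shNC libraries against 51.0 and 48.4 CPM in the shGm26917 libraries. Its 2 shGm26917 values lay below the shNC values, which were almost equal (log2 fold change -0.23, SE 0.058, 95% interval -0.36 to -0.09, adjusted p = 0.0279).

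For Orai1, Orai2 and Stim1 the groups overlapped. Orai1, the pore subunit of the classical calcium release-activated current, had 3.70 and 4.94 CPM in the shNC libraries against 3.76 and 3.70 CPM in the shGm26917 libraries (log2 fold change -0.18, 95% interval -0.55 to 0.19, adjusted p = 0.46). Orai2 had 34.0 and 32.1 against 34.3 and 32.5 CPM (0.02, 95% interval -0.14 to 0.17, adjusted p = 0.89). Stim1, the main sensor, had 68.9 and 58.3 against 70.2 and 63.4 CPM (0.07, 95% interval -0.14 to 0.28, adjusted p = 0.596). Per kilobase of exon, Orai2 was the highest ORAI gene in shNC, at 5.44 CPM per kb, and Orai3 went from 2.84 to 4.30 CPM per kb. The log2 ratio of Orai3 to Orai2 was -2.46 and -2.25 in shNC and -1.88 and -1.73 in shGm26917, and that of Stim2 to Stim1 was -0.24 and 0.00 against -0.46 and -0.38. Both ratios separated the groups, which restates the changes of the same genes. Orai3 was not called without shGm26917 replicate 2 (adjusted p = 0.0612), nor was Stim2 without shGm26917 replicate 1 or 2 (0.0723 and 0.22) or without trend and robust moderation together (0.0901).

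The windows upstream of Orai3, Stim2 and Trpv2 are shown because the first pair act in one entry pathway and moved in opposite directions, and because Trpv2 had the smallest p of the 53 genes. Each holds the 250 bases before the RefSeq start on GRCm38.p6, 5′ to 3′ on the strand of the gene, from chr7:127769565-127769814 (Orai3), chr5:53998273-53998522 (Stim2) and chr11:62574236-62574485 (Trpv2), all on the plus strand, and capitals mark GC boxes. The last 24 bases of the Stim2 window lie inside the gene as GENCODE annotates it.
Orai3: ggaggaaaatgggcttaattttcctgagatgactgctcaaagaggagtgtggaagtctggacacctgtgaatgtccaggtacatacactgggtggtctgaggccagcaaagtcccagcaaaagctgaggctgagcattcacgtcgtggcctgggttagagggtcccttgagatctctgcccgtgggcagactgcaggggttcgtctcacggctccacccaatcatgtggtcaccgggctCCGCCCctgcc
Stim2: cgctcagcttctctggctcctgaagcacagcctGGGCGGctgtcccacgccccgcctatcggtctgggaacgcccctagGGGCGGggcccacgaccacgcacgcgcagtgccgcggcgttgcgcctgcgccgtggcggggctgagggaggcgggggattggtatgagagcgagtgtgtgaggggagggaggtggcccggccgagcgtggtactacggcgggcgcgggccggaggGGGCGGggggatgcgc
Trpv2: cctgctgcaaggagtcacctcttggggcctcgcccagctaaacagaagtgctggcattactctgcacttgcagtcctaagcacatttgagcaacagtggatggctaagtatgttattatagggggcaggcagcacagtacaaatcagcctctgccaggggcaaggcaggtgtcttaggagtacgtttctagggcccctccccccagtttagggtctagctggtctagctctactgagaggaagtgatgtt

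Short motifs were searched on both strands of such windows, which 9 of the 11 called genes had, all but P2rx3 and Kcnk6. The GC box (GGGCGG) was found in 5 of the 9 windows and in 32.7% of 32851 RefSeq windows. Among the 5, the windows of Trpm2 and Kcnab2 lay inside the gene locations given below. Their RefSeq starts were 691 and 361 bases from the 5′ ends of those locations. Stim2 held 3 GC boxes, beginning 217, 171 and 16 bases before the start, Orai3 held 1 that began 11 bases before it, and Trpv2 held 0. The GATA motif (AGATAA) was found in 1 of the 9, P2rx1, and in 9.99% of all windows. The AP-1 motif (TGANTCA) and the E-box (CACGTG) were found in 0 of the 9, against 6.75% and 6.0% of all windows. These are matches of letters only, and no binding was measured.

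The IP3 receptor genes, which encode the calcium release channels of the endoplasmic reticulum, were all measured, and 0 of 3 were called with limma, 0 also at an unadjusted p under 0.05. Itpr1 had 36.6 and 29.9 CPM in the shNC libraries against 33.3 and 34.2 CPM in the shGm26917 libraries (log2 fold change 0.03, adjusted p = 0.865), and Itpr3 had 73.5 and 64.8 against 66.0 and 61.0 CPM (-0.12, adjusted p = 0.299). The groups overlapped in both. Itpr2 had 49.2 and 46.6 CPM in the shNC libraries against 52.6 and 50.6 CPM in the shGm26917 libraries, without overlap (0.11, 95% interval -0.03 to 0.25, adjusted p = 0.235). Without shNC replicate 2, Itpr3 was called lower (-0.21, adjusted p = 0.042).

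Of the 5 TRP channel genes, Trpv2 and Trpm2 rose and 3 were not called. Of all genes, 11.6% were called higher and 11.5% lower. Trpv2, which encodes a calcium-permeable cation channel, had 79.1 and 73.3 CPM in the shNC libraries against 113 and 111 CPM in the shGm26917 libraries. Both shGm26917 libraries were well above both shNC libraries (log2 fold change 0.55, SE 0.059, 95% interval 0.42 to 0.69, limma adjusted p = 0.00137). Trpm2, a cation channel gene whose product opens on ADP-ribose and oxidative stress, had 24.3 and 20.8 CPM in the shNC libraries against 29.5 and 29.0 CPM in the shGm26917 libraries. The groups did not overlap, and the shNC libraries lay farther apart than the shGm26917 libraries (log2 fold change 0.37, SE 0.087, 95% interval 0.17 to 0.57, adjusted p = 0.022).

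Trpm7 had 143 and 141 CPM in the shNC libraries against 157 and 150 CPM in the shGm26917 libraries, without overlap and not called (log2 fold change 0.11, 95% interval -0.01 to 0.24, adjusted p = 0.177). Piezo1, the mechanically gated cation channel gene, had 111 and 100.5 CPM in the shNC libraries against 117 and 114 CPM in the shGm26917 libraries (0.13, 95% interval -0.02 to 0.28, adjusted p = 0.179). The calcium-activated channel gene Trpm4 and the diacylglycerol-activated channel gene Trpc6 had log2 fold changes of -0.08 and 0.11, and the adaptor gene Trpc4ap one of 0.06 (adjusted p = 0.488), and the groups overlapped in all 3. Trpm2 was not called without shGm26917 replicate 1 (adjusted p = 0.0593) or without trend and robust moderation together (0.0713), and Piezo1 was called without shNC replicate 1 (log2 fold change 0.20, adjusted p = 0.0204).

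Among 10 potassium channel pore genes, 2 rose and 1 fell, and of 3 partner genes, 1 rose. The shares of all genes were 11.6% called higher and 11.5% called lower. Kcnq5, a voltage-gated channel gene of the M-current family, had 15.5 and 13.8 CPM in the shNC libraries against 23.1 and 22.2 CPM in the shGm26917 libraries. The shGm26917 libraries lay well above the others (log2 fold change 0.61, SE 0.088, 95% interval 0.41 to 0.82, limma adjusted p = 0.00354). Kcnab2, the gene of a cytoplasmic beta subunit of Shaker-type potassium channels, had 68.4 and 65.3 CPM in the shNC libraries against 91.8 and 92.9 CPM in the shGm26917 libraries. The groups were again clearly apart (log2 fold change 0.46, SE 0.055, 95% interval 0.34 to 0.59, adjusted p = 0.00196). Kcnab3, which encodes another beta subunit, averaged 1.53 ± 0.035 CPM in the shNC libraries and 1.21 ± 0.143 CPM in the others (SD, n = 2) and was not called.

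The tandem-pore potassium channels, which carry background current, moved in both directions. Kcnk6 had 15.9 and 14.1 CPM in the shNC libraries against 19.9 and 20.3 CPM in the shGm26917 libraries. Its level was higher in each shGm26917 library than in either shNC library (log2 fold change 0.41, SE 0.088, 95% interval 0.20 to 0.61, limma adjusted p = 0.016). Kcnk4, a mechanically gated member, had 1.92 and 2.44 CPM in the shNC libraries against 0.63 and 1.12 CPM in the shGm26917 libraries, or about 31 reads in each shNC library and about 11 and 18 reads in shGm26917. In shGm26917 only 1 of the 2 libraries reached 1.003 CPM, so its place in the table rested on shNC. The groups did not overlap, and shGm26917 replicate 1 was the lowest (log2 fold change -0.98, SE 0.231, 95% interval -1.52 to -0.44, adjusted p = 0.0217). Its exons overlap those of Catsperz on the same strand and 13.24% of its 50-base stretches are shared with other genes, so its level is uncertain.

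Kcnk5, a pH-sensitive member, had 18.8 and 16.6 CPM in the shNC libraries against 21.1 and 21.6 CPM in the shGm26917 libraries. The groups did not overlap and the gene was not called (log2 fold change 0.27, SE 0.087, adjusted p = 0.0616), but it was with upper-quartile scaling (adjusted p = 0.0486) and without shNC replicate 1 (0.0152). The calcium-activated channel gene Kcnn4 had a log2 fold change of 0.24 (adjusted p = 0.125). The other potassium channel genes were low, and their groups overlapped except for Kcnk2, a mechanically and lipid-gated tandem-pore channel gene at a log2 fold change of -0.34 (adjusted p = 0.216). The voltage-gated channel genes Kcna3, Kcnd1 and Kcnh2 were at 0.04, -0.09 and 0.07, the small-conductance calcium-activated channel gene Kcnn1 at 0.25 and the channel-interacting calcium sensor gene Kcnip3 at 0.07. Kcnk6 was not called without shGm26917 replicate 2 (adjusted p = 0.0647), nor was Kcnk4 without shGm26917 replicate 1 (0.0987). Trpv2, Kcnab2 and Kcnq5 were called whichever of the 4 libraries was left out.

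**Figure D3:**
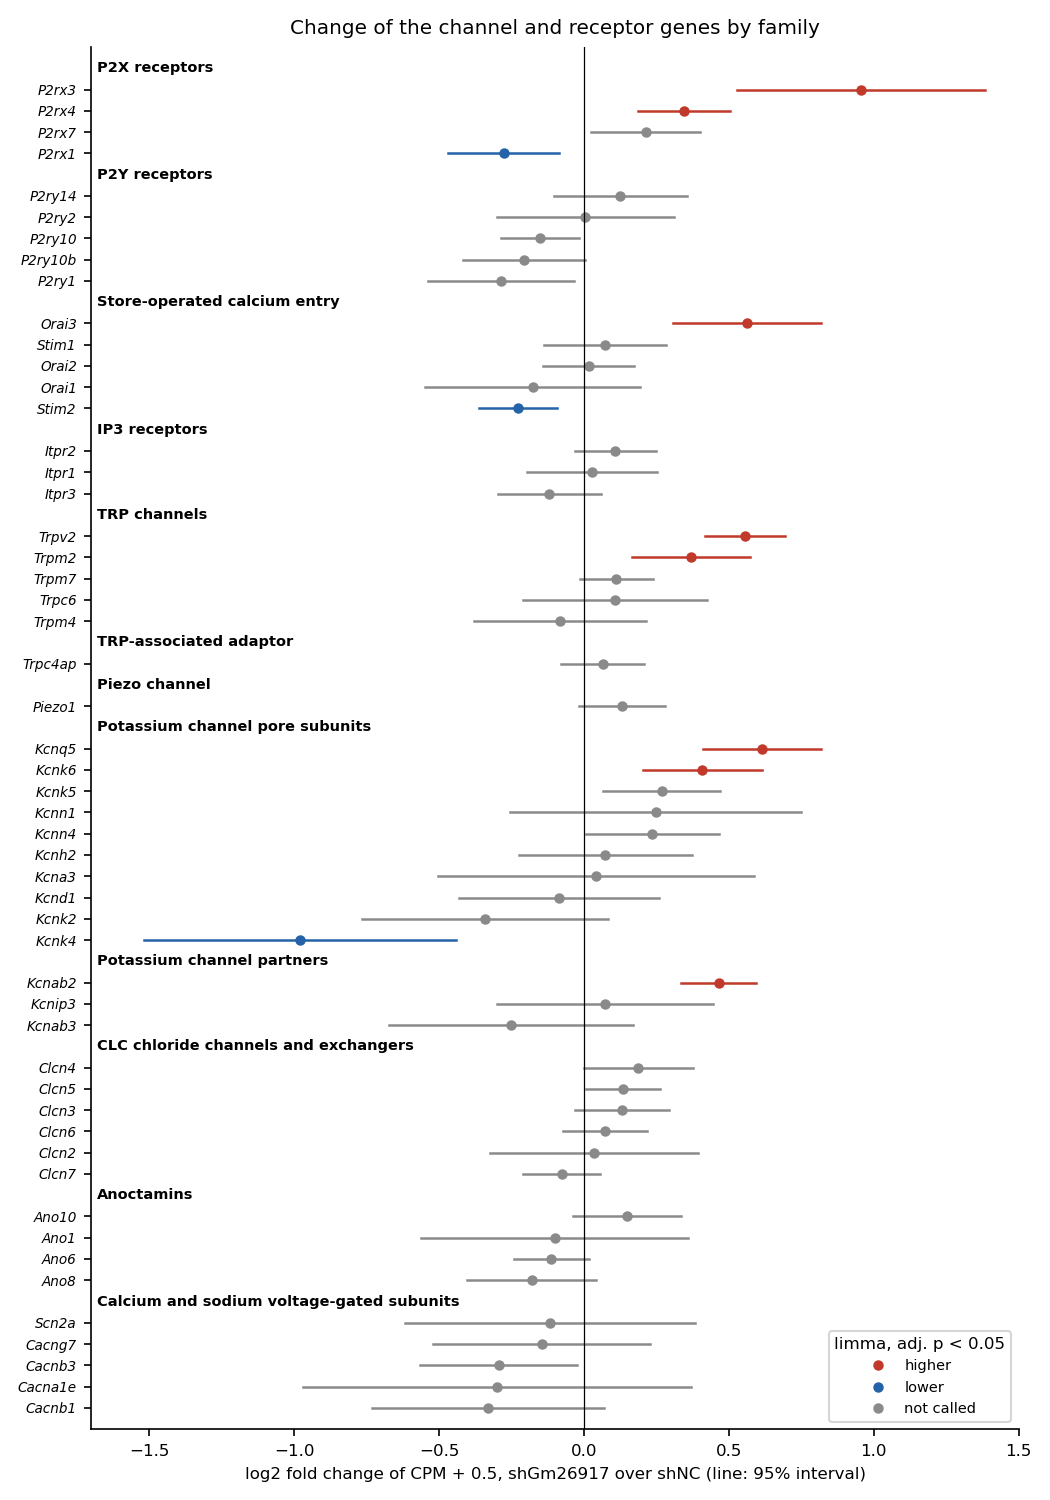
Log2 fold change of CPM + 0.5, shGm26917 over shNC, with its 95% interval for the channel and receptor genes, grouped by family, with called genes in colour. The voltage-gated calcium and sodium channel subunits shown all lie below 0 and 5 of the 6 CLC genes lie above it, with 0 called in either family. Of all 12701 genes, 6461 were below 0 and 6240 above it.

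The remaining families held no call with limma, and whether a family moved as a whole was not tested. Of all 12701 genes, 6240 had log2 fold changes above 0 and 6461 below it. Of the 6 CLC chloride channel and exchanger genes, 5 had log2 fold changes above 0, from a range of -0.08 to 0.19, with a median of 0.10 and 1 unadjusted p under 0.05. The endosomal exchanger genes Clcn4 and Clcn5 were at 0.19 and 0.13 (limma, adjusted p = 0.137 and 0.12), and the groups did not overlap in either. Clcn3 was called without shNC replicate 1 (log2 fold change 0.22, adjusted p = 0.0164). The 6 voltage-gated calcium and sodium channel subunit genes all had log2 fold changes below 0, the lowest at -0.33, with a median of -0.22 and 1 unadjusted p under 0.05, and these genes were low, with a median level of 2.54 CPM. Of these, the beta subunit gene Cacnb3 was lower in both shGm26917 libraries (-0.29, adjusted p = 0.109). The 4 anoctamin genes, which encode calcium-activated chloride channels and lipid scramblases, ranged from -0.18 to 0.15, with 0 unadjusted p under 0.05, and the scramblase gene Ano6 was at -0.11 (adjusted p = 0.182). Of the other genes of these families, Clcn2, Clcn6 and Clcn7 were at 0.03, 0.07 and -0.08, the pore genes Cacna1e and Scn2a at -0.30 and -0.12, the auxiliary subunit genes Cacnb1 and Cacng7 at -0.33 and -0.15, and Ano1, Ano8 and Ano10 at -0.10, -0.18 and 0.15. Ano10 and Kcnk2 were called without shNC replicate 1, as were Clcn4 and Cacna1e without shNC replicate 2.

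A further list held genes that act with these channels in calcium signalling and ATP metabolism. Of 112 genes written, 82 were listed, and 18 rose and 7 fell, 30.5% of those listed against 23.1% of all genes. The higher calls were 22% and the lower calls 8.54% of the list, against 11.6% and 11.5% of all genes. The same shares of all genes apply to the smaller groups of the list below. The median log2 fold change of the list was 0.06. Among 20 calmodulin, calcineurin and NFAT genes, 7 rose and 1 fell. The calcineurin catalytic subunit genes Ppp3ca, Ppp3cb and Ppp3cc, chosen for mention after their values were seen, rose by 0.35, 0.27 and 0.48 on the log2 scale (limma, adjusted p = 0.00418, 0.0119 and 0.00844). The transcription factor genes Nfatc1 and Nfatc2 also rose (0.27 and 0.43), while Nfatc3 and Nfatc4 were not called (0.02 and 0.17, limma adjusted p = 0.83 and 0.446). The regulatory subunit gene Ppp3r1, also chosen after its value was seen, was at -0.19 without overlap and was not called (adjusted p = 0.0545). Nfat5, which responds to osmotic stress, fell by 0.22 on that scale.

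Among 12 phospholipase C and IP3 genes, 1 rose and 3 fell. Itpkb, the gene of a kinase that converts IP3, had 49.6 and 42.1 CPM in the shNC libraries against 29.9 and 29.3 CPM in the shGm26917 libraries. Both shGm26917 libraries were well below both shNC libraries (log2 fold change -0.62, SE 0.085, 95% interval -0.81 to -0.42, limma adjusted p = 0.00323). Plcd3, a phospholipase C gene, had 2.95 and 3.58 against 1.98 and 1.87 CPM, also without overlap (-0.63, adjusted p = 0.0281). Of 10 further store-operated entry and calcium pump genes, 3 rose and 7 were not called. Jph4, which encodes a junctophilin that ties the endoplasmic reticulum to the plasma membrane, had 2.26 and 2.80 CPM in the shNC libraries against 4.62 and 4.58 CPM in the shGm26917 libraries (0.76, SE 0.149, adjusted p = 0.0116). Atp2a3, the gene of a calcium pump of the reticulum, had 87.3 ± 6.86 and 110.1 ± 4.56 CPM (SD, n = 2; 0.34, adjusted p = 0.0138).

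Of 11 genes of ATP release and nucleotide breakdown, 2 rose and 1 fell. Entpd5, a nucleoside diphosphatase gene, had 33.6 and 29.9 CPM in the shNC libraries against 49.8 and 51.5 CPM in the shGm26917 libraries (log2 fold change 0.67, SE 0.073, limma adjusted p = 0.00152). The nucleoside transporter gene Slc29a2 had 3.14 and 3.89 against 5.71 and 5.18 CPM (0.57, adjusted p = 0.0281). In both genes the shGm26917 libraries were above the shNC libraries. Adora2b, an adenosine receptor gene, fell (-0.38, adjusted p = 0.0483).

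Of 21 channel genes outside the name rule, 4 rose and 2 fell. Mcoln2, an endolysosomal cation channel gene, had 9.73 and 9.33 CPM in the shNC libraries against 19.3 and 18.3 CPM in the shGm26917 libraries. Its groups were far apart against the spread within them (log2 fold change 0.95, SE 0.087, 95% interval 0.74 to 1.15, limma adjusted p = 0.000902). Clic1, a chloride intracellular channel gene, had 163 and 166 CPM in the shNC libraries against 103 and 105 CPM in the shGm26917 libraries, again far apart in the other direction (-0.66, SE 0.052, 95% interval -0.78 to -0.54, adjusted p = 0.000517). Cnga1, a cyclic nucleotide-gated channel gene, was low, at 2.26 and 1.71 against 3.59 and 3.76 CPM (0.76, adjusted p = 0.0169). Of 8 mitochondrial calcium uptake genes, 1 rose, Mcur1 (0.27, adjusted p = 0.046). Without shGm26917 replicate 1 the list of 82 gave 9 higher and 3 lower calls, and without replicate 2 it gave 10 and 3. Slc29a2 was then not called without shNC replicate 1 (0.053) or shGm26917 replicate 1 or 2 (0.14 and 0.0647, all adjusted p), Plcd3 without shNC replicate 2 (0.0667) or shGm26917 replicate 1 or 2 (0.0809 and 0.128), and Cnga1 without shGm26917 replicate 2 (0.0747).

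**Figure D4:**
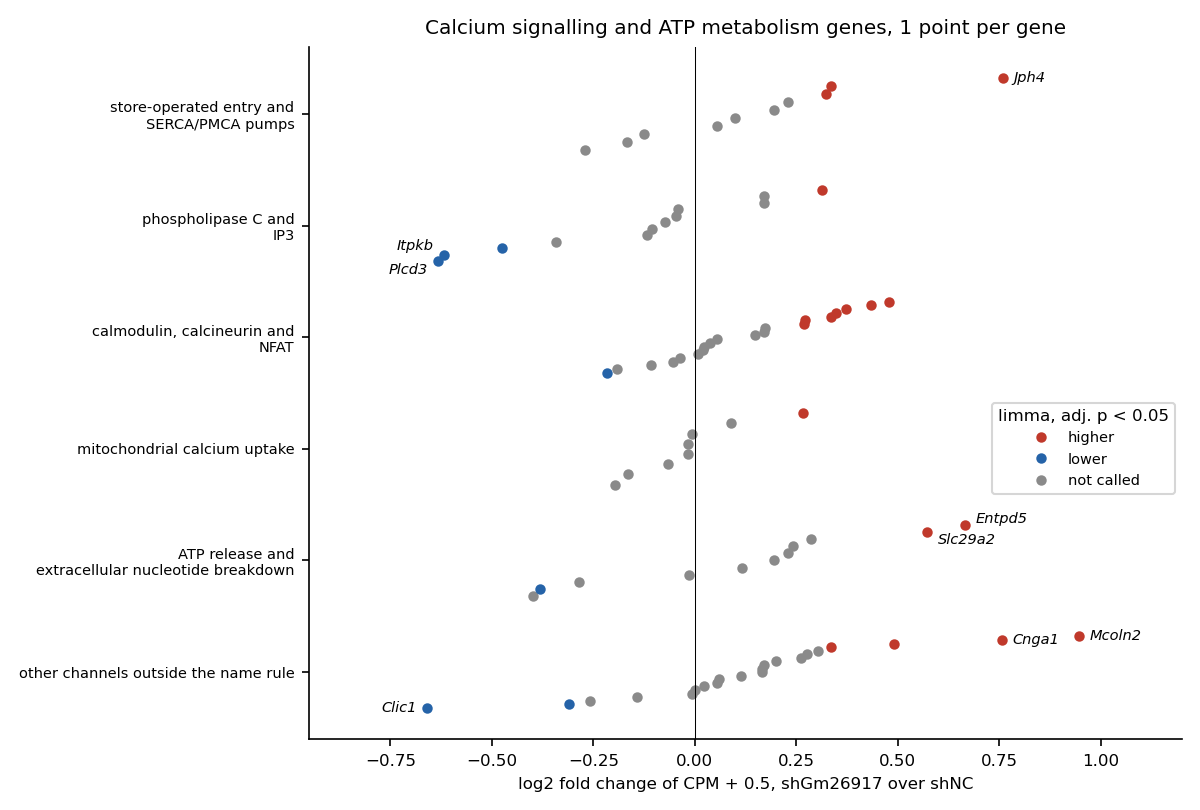
Log2 fold change of CPM + 0.5, shGm26917 over shNC, of the 82 listed genes that act with the channels, 1 point per gene in 6 groups, with called genes in colour and a name at called genes beyond 0.55 in either direction. Mcoln2 lies farthest to the right at 0.95 and Clic1 farthest to the left at -0.66.

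Locations of the called genes are given as in the deposited table, on mm10, and equal those of GENCODE M21 for 52 of the 53 genes, all but Kcnab2. P2rx3 lies at chr2:84998583-85037462 on the minus strand, P2rx4 at chr5:122707544-122729738 on the plus strand and P2rx1 at chr11:72999103-73015200 on the plus strand. Orai3 lies at chr7:127769815-127775150 and Stim2 at chr5:53998499-54121057, both on the plus strand. Trpv2 lies at chr11:62574486-62600515 on the plus strand and Trpm2 at chr10:77907722-77970563 on the minus strand. Kcnq5 (chr1:21398403-21961942), Kcnab2 (chr4:152390742-152477910), Kcnk6 (chr7:29221926-29232515) and Kcnk4 (chr19:6923966-6934515) are all on the minus strand. Of the 53 genes, 20 overlap an exon of another annotated gene, and in 4 of them (P2rx3, Piezo1, Clcn2 and Ano8) that gene was itself among the genes measured.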

How the data were processed

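Total RNA of 4 FGSC libraries (2 shNC, 2 shGm26917) was made into libraries with a commercial kit, and the tools named in the submitters' processing notes are RSEM 1.2.28, Bowtie2 2.1.0 and edgeR, with build mm10. The authors deposited CPM values for 12701 genes in 1 table, and the second-highest library of a gene was never under 1.003 CPM, so a gene low in every library had no row, while single libraries could be at 0. Columns of the authors' own comparison (log2 and linear fold, p-value, adjusted p and a call) were deposited beside them and were not used. Genotype labels gave the groups, and titles gave the replicate numbers.

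Values were compared as log2(CPM + 0.5) with limma 3.58.1 (R 4.3.3), fitted on all genes with robust empirical Bayes moderation and a trend of variance on level, with Benjamini-Hochberg adjustment and a threshold of 0.05. Genes named were, by rule, those called, those with an adjusted p from 0.05 to 0.1, the 8 highest in CPM, all STIM, ORAI, IP3 receptor, Piezo, P2X and P2Y genes, and the 8 called genes of the calcium and ATP list with the largest change. Others were named after their values were seen. A gene that stays in the tests and counts is not reported here by name. The members and lists were chosen with earlier results of these data known. The CPM of a library summed to 755159 to 771715. Steps in the low values correspond to libraries of about 12900000 to 17900000 reads, but only 33.6% to 67.8% of values under 2 CPM lay within 0.02 of a whole step, so reads were not recovered and read numbers are approximate. On simulated data, folds of 1.3, 1.5, 2 and 4 were recovered in 40%, 74%, 84% and 100% of 50 genes each, among 12701 genes with 4 false calls. The simulated noise was independent between genes and libraries, with a spread smoothed over genes of similar level. Library effects shared by genes and extra spread of single genes were absent, so these numbers hold for that setting only. Exon lengths and overlaps came from GENCODE M21, promoter windows from RefSeq on GRCm38.p6, and hairpin sequences from the study's supplement. Alternatives were scaling by median ratio or by upper quartile, pseudocounts of 0.1 and 1, at least 5 CPM in 2 libraries, no trend or robust moderation, a replicate block and leaving out each library. Figures used matplotlib 3.10.9 in Python 3.11.15 with pandas 2.3.3.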

Additional observations from a re-analysis of the deposited data

How the results depend on the processing

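The 53 genes gave 8 higher and 3 lower calls with pseudocounts of 0.1 and 1 and with median-ratio scaling, the same 11 genes in each case, 9 and 3 with upper-quartile scaling, and 7 and 2 with the filter at 5 CPM in 2 libraries, which tested 36 of them and left out Kcnk4 and P2rx3. Without trend and robust moderation there were 7 higher and 1 lower. Without 1 library the counts ranged from 4 to 12 higher and from 0 to 5 lower, and those of the calcium and ATP list from 9 to 22 higher and from 3 to 10 lower, against 18 and 7. The lowest counts came without a shGm26917 library and the highest without a shNC library. Calls among all genes, 2930 in the main fit, were likewise fewer and more numerous there. In such fits the remaining library of a group is assumed to vary like the other group. Without trend and robust moderation all genes gave 1847 calls. Log2 fold changes of uncalled genes that turned direction when 1 library was left out ranged from -0.023 to 0.27 for P2ry14 (turned without shNC replicate 1), -0.020 to 0.030 for P2ry2 (without shNC replicate 1 or shGm26917 replicate 2), -0.12 to 0.17 for Itpr1, -0.36 to 0.0089 for Orai1, -0.024 to 0.055 for Orai2 and -0.047 to 0.19 for Stim1 (all without shNC replicate 2, Orai2 also without shGm26917 replicate 1). The cause was not tested. Replicate numbers were shared between the groups, and the deviations of same-numbered libraries correlated at r = 0.06 across genes (0.11 over genes of at least 5 CPM), with 2 pairs. With the replicate number as a block, 9 of the 53 genes were called higher and 3 lower, Kcnk5 being added (log2 fold change 0.27, adjusted p = 0.028), and all genes gave 3982 calls. P2rx3 and Kcnk4 rest on about 11 to 40 reads per library, which limits their precision.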

Other observations

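P2rx7, P2rx4 and Camkk2, which encodes a calmodulin-dependent kinase kinase, are neighbours on mouse chromosome 5, with 16.1 kb between P2rx7 and P2rx4 and 1.43 kb between P2rx4 and Camkk2. Camkk2 had 20.3 and 21.8 CPM in the shNC libraries against 27.5 and 27.4 CPM in the shGm26917 libraries (log2 fold change 0.37, limma adjusted p = 0.0112), beside 0.34 for P2rx4 and 0.21 for P2rx7, which was not called. In the 824 kb from Hvcn1 to Orai1, a window chosen after these values were seen, 18 genes were listed and 4 were called (22.2%, against 23.1% of all genes). Of these, Rad9b, a checkpoint clamp gene, rose by 0.62 and P2rx4 and Camkk2 rose, while Arpc3, an actin nucleation gene, fell by 0.33 on the log2 scale. The proton channel gene Hvcn1 was at 0.28 (adjusted p = 0.0507) and the calcium pump gene Atp2a2 at 0.20 (adjusted p = 0.0599).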
